A study of Mus musculus with 6 samples.

Results

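The untreated baseline of mouse bone marrow monocytes and macrophages was described from 3 arrays of the 6 in the series. Its members were chosen by their sample labels, which give no MEC1 cells and day 21, and they are the control mice named A, B and C. These were BALB/c mice of 11 weeks with the genotype Rag2-/-γc-/-, they received no treatment, and their marrow monocytes and macrophages were purified magnetically. Each mouse gave 1 array, and all of the arrays lay on 1 chip. The other 3 mice of the series, injected with the human leukaemic B cell line MEC1, were not used in the levels given here. Rag2-/-γc-/- mice lack the recombinase needed to assemble antigen receptors and the shared receptor chain of several interleukins, so T, B and NK cells do not develop in them. The labels do not say which surface marker the magnetic beads bound or how pure the cells were. No comparison between groups was made, and the spread given is that among the 3 mice.

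Monocytes arise in the marrow from myeloid progenitors that also give neutrophils, and signals through the receptor Csf1r act on both monocytes and macrophages. Classical monocytes carry Ly6C on their surface and leave the marrow through Ccr2. Resident marrow macrophages sit at the centre of erythroblastic islands, where they supply iron to maturing red cells and take up the nuclei that these expel.

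Expression was measured as the fluorescence of bead-bound probes, and levels are given as log2 intensity after background correction and quantile normalization. A probe was counted as detected on an array when its deposited detection p-value, which sets it against the negative controls of that array, was under 0.05. Of 45281 probes, 15998 were detected in mouse A, 16976 in mouse B and 16423 in mouse C. On all 3 arrays 14939 were detected, which is 33% of the probes. Of the 19057 genes with a named probe, 8392 were detected on all 3 arrays, or 44%. Another 1331 genes were detected on some arrays and 9334 on none. Each count of detected genes in a list below is to be read beside the 44% detected on all 3. A gene is represented by its brightest probe, and the median level of the 8390 genes detected there on all 3 arrays was 9.42. Brightness depends on the probe as well as on the amount of its transcript, so the order of probes is not an order of abundance, and a probe that was not detected does not show that its transcript was absent.

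The defining markers of the labelled cells were all detected in every mouse. Ly6c1, which encodes a Ly6C surface protein, read 14.50, 14.51 and 14.47 in mice A, B and C. Cd14, the co-receptor for lipopolysaccharide, read 12.70, 12.62 and 12.49. Csf1r, through which CSF-1 and IL-34 act on these cells, read 11.00, 11.03 and 10.94. Adgre1, which encodes the macrophage surface protein F4/80, read 10.46, 10.73 and 10.09. The mice lay within 0.21 of each other for the first 3 markers and within 0.64 for Adgre1, where mouse C was lowest. At the other 2 probes of Adgre1 the mice lay within 0.13 and 0.38, and at the third probe mouse C was highest.

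Of the 19 monocyte and macrophage core genes with a probe, 18 were detected on all 3 arrays, against 44% of all named genes. Their median level was 12.57 and their median range between mice 0.21, against 9.42 and 0.31 over all detected genes. The lysozyme genes Lyz2 and Lyz1 were the brightest of the list, with means of 15.47 and 15.09. They are near-identical copies whose probes may share transcripts. Cd52, a small surface glycoprotein of leukocytes, averaged 14.10, Emb 13.21 and the Fc receptor gene Fcgr3 13.16. The signalling adaptor gene Tyrobp read 12.93, 12.83 and 12.50. The widest ranges of the list were at Ms4a6c, with 9.08, 8.47 and 8.15, at Mpeg1, with 8.24, 8.77 and 8.89, and at Adgre1. Fcer1g, the signalling chain of the Fc receptors, was not detected on any array at its single probe.

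**Figure D1:**
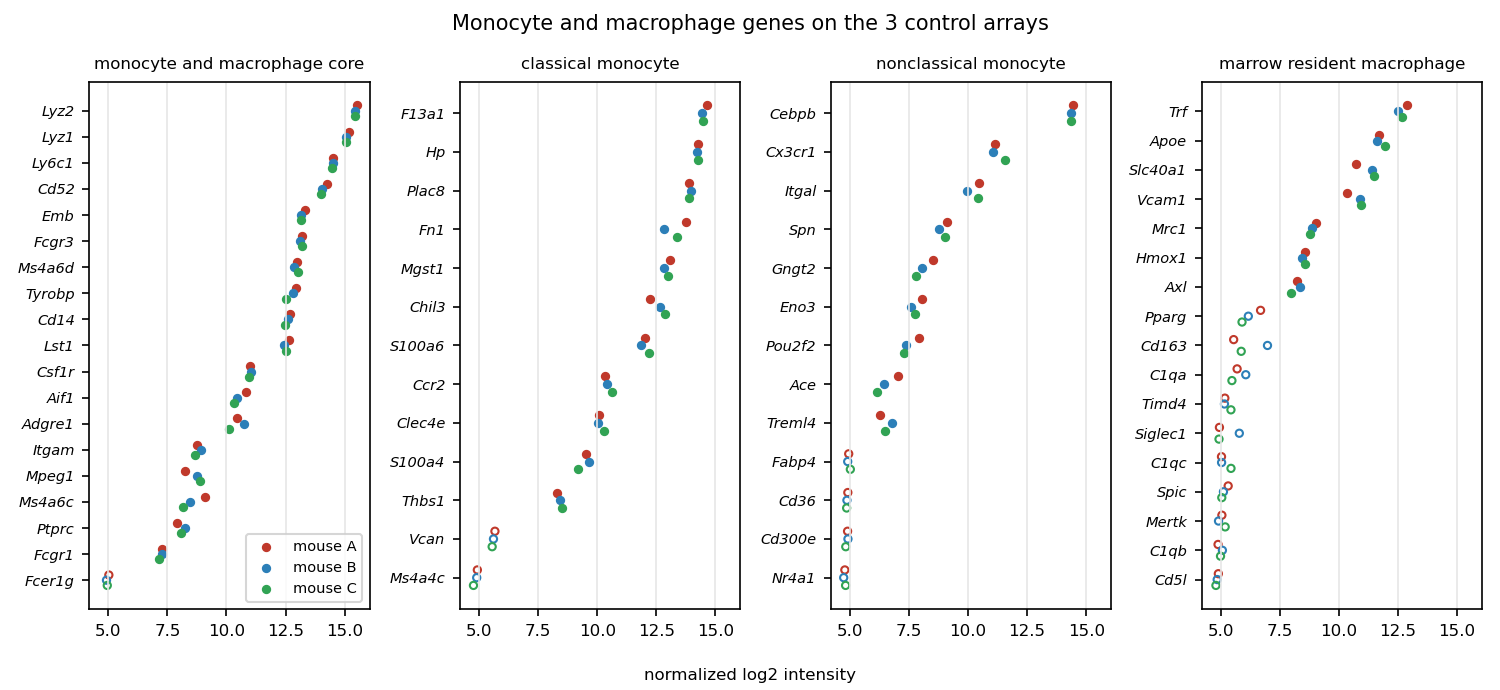
Normalized log2 intensity of the brightest probe of each gene in 4 lists, in mice A, B and C, with filled points for genes detected on all 3 arrays and open points for the others. The 18 detected core genes run from 7.23 to 15.47, and the open points of the marrow resident macrophage list include C1qa, C1qb and C1qc.

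Of 13 genes listed for classical monocytes, 11 were detected, or 84.6%, beside 44% of all named genes. Lists of other myeloid cells were also mostly detected, with primary granule genes at 12 of 12 and neutrophil genes at 17 of 23. F13a1, the A chain of coagulation factor XIII, read 14.65, 14.45 and 14.46, and Hp, which encodes haptoglobin, read 14.28, 14.22 and 14.28. Plac8 averaged 13.92, Mgst1 12.96 and Chil3, a chitinase-like protein of myeloid cells, 12.59. Fn1, which encodes fibronectin, had the widest range of the list, with 13.77, 12.84 and 13.38 in mice A, B and C. Ccr2, the receptor for marrow egress, read 10.32, 10.40 and 10.63. Vcan and Ms4a4c were not detected on any array. Which marrow cells the detected genes of this list came from was not tested.

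Of 13 nonclassical monocyte genes, 9 were detected. Cebpb, a transcription factor gene used in many myeloid cells, averaged 14.39, and Cx3cr1, the fractalkine receptor, read 11.14, 11.07 and 11.57. Itgal averaged 10.29, Spn 8.97, Gngt2 8.12 and Eno3 7.80. Eno3 is also in the glycolysis and skeletal muscle lists, Cebpb in the transcription factor list and Cx3cr1 in the chemoattractant receptor list. Mouse A was highest at 7 of the 9 genes, where it was highest at 35.3% of all detected genes. The count was 4 of 9 when arrays were scaled to a common median instead, where mouse A was highest at 17.6% of all detected genes. Nr4a1, the nuclear receptor on which nonclassical monocytes depend, was not detected on any array, and neither were Cd300e, Cd36 and Fabp4.

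Of 17 marrow resident macrophage genes with a probe, 7 were detected on all 3 arrays, 3 on some and 7 on none. The share detected on all 3, 41.2%, was near the 44% of all named genes. Trf, which encodes transferrin, averaged 12.68, Apoe 11.76, the iron exporter Slc40a1 11.21 and the adhesion molecule Vcam1 10.73. Mrc1, the mannose receptor, and Hmox1, which degrades haem, averaged 8.89 and 8.53, and Axl averaged 8.18. Slc40a1 read 10.74 in mouse A against 11.40 and 11.48 in mice B and C, and Vcam1 read 10.35 against 10.91 and 10.93. The complement genes C1qb and C1qc, the efferocytosis receptor Mertk, Siglec1, Timd4, Cd5l and Spic, a transcription factor of iron-recycling macrophages, were not detected on any array. C1qa and the haemoglobin scavenger receptor Cd163 were each detected on 1 array and Pparg on 2. Which of the detected genes came from macrophages and which from other marrow cells was not tested.

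Among dendritic cell genes, 10 of 19 were detected, or 52.6%, beside 44% of all named genes. The class II genes Cd74, H2-Ab1 and H2-Eb1 averaged 11.96, 10.29 and 9.87, and the transcription factor genes Tcf4 and Irf8 averaged 11.26 and 10.67. Siglech, a surface protein of plasmacytoid dendritic cells, read 8.75, 9.02 and 8.19. Bst2, with 8.68, 9.76 and 9.57, and Klk1, with 7.37, 8.26 and 6.81, ranged by more than 1 between mice. Flt3, Itgax, Xcr1, Cd209a, Ccr9 and H2-Aa were not detected on any array. Of 11 osteoclast genes, 4 were detected, or 36.4%, namely Nfatc1, Mmp9, Ctsk and Acp5. Mmp9 is also in the neutrophil list. Calcr, Dcstamp, Ocstamp, Itgb3 and Atp6v0d2 were not detected on any.

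Transcripts of other marrow lineages were present on every array, as the plot of detection by list shows. All 12 primary granule and myeloid progenitor genes were detected, with a median level of 11.95. Mpo, which encodes myeloperoxidase, read 15.07, 15.16 and 14.92. The serine protease genes Elane, Prtn3 and Ctsg averaged 14.68, 14.29 and 13.93. Ms4a3, a gene of granulocyte and monocyte progenitors, read 12.16, 12.63 and 12.40, and Fcnb, a ficolin gene, read 12.10, 12.42 and 12.78. Mouse B was highest at 10 of the 12 genes, against 31.7% of all detected genes.

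**Figure D2:**
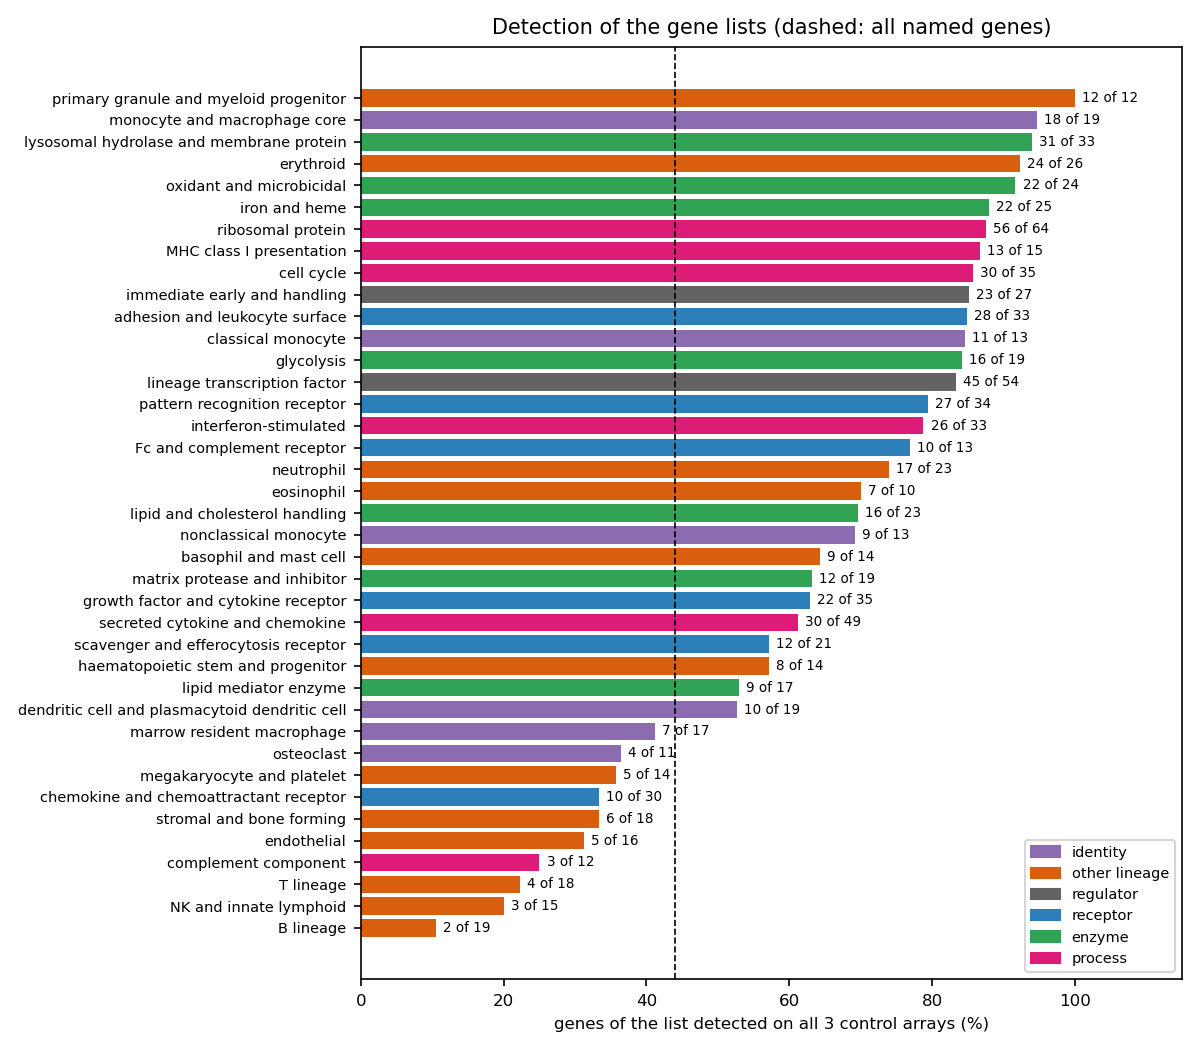
Share of the genes in each list that were detected on all 3 control arrays, in percent, with the counts printed beside the bars and the lists coloured by role. The dashed line is the 44% of all named genes, and B lineage, NK and T lineage genes lie at the low end with 2 of 19, 3 of 15 and 4 of 18.

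Of 23 neutrophil genes, 17 were detected. S100a8 and S100a9, which together form calprotectin, averaged 15.06 and 14.04. The granule protein genes Ngp, Ltf, Camp and Lcn2 averaged 14.32, 14.04, 13.77 and 13.33. Ngp read 14.02, 14.54 and 14.40 and Lcn2 was also lowest in mouse A, with a range of 0.74. Mmp9, the gelatinase of tertiary granules, read 7.90, 9.40 and 7.90, and Stfa1 and Chil1 also ranged by more than 1, with mouse B highest. Over the list mouse B was highest at 12 of 17 genes and mouse A lowest at 11, against 31.7% and 37% of all detected genes. Mmp8, Stfa2l1 and Stfa3 were not detected on any array.

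Eosinophil genes were detected at 7 of 10. Prg2, which encodes eosinophil major basic protein, read 15.28, 15.48 and 15.46 and was among the 25 brightest named genes. Ear6, an eosinophil ribonuclease gene with near-identical relatives, averaged 14.19, and Prg3 and Epx, which encodes eosinophil peroxidase, averaged 11.85 and 10.83. The surface receptor genes Siglecf, Ccr3 and Il5ra were not detected on any array.

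Of 14 basophil and mast cell genes, 9 were detected, and mouse B was highest at all 9. Among these 9, Kit and Gata2 are also in the stem and progenitor list, and Il6 is also in the list of secreted factors. Prss34, a basophil protease gene, read 13.47, 13.70 and 13.51. Hdc, the histamine-forming enzyme, read 12.42, 12.75 and 12.26. Cpa3, a carboxypeptidase of mast cells and basophils, read 11.30, 11.98 and 11.46. Mcpt8, the basophil protease mMCP-8, read 10.19, 11.03 and 10.27, and Fcer1a, the IgE-binding chain, read 10.32, 10.93 and 9.97. The list's median deviation from the mean of the mice was -0.11 in mouse A, 0.31 in mouse B and -0.20 in mouse C. The share of all detected genes at which mouse B was highest was 31.7%, and it was 52.2% under median scaling, where mouse B was also highest at all 9. In RNA from a mixed sample, more cells of a type and more RNA per cell cannot be told apart. The mast cell protease genes Cma1, Mcpt4, Tpsab1 and Tpsb2, and Ms4a2, were not detected on any array.

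Erythroid genes were detected at 24 of 26 and varied between the mice in a common direction. Hba-a1, the alpha globin gene, was the brightest probe on every array, with raw intensities of 52308, 53109 and 53084. Its normalized value of 15.69 in each mouse is set by quantile normalization, which gives the top rank the same value on every array. The beta globin genes Hbb-bt and Hbb-bs, whose probes may share transcripts, averaged 15.53 and 15.44. Slc4a1, the anion exchanger of the red cell membrane, read 14.07, 14.60 and 14.69. Car1 and Car2, which encode carbonic anhydrases, read 12.87, 13.26 and 13.69, and 12.54, 13.15 and 13.65, and Tfrc, the transferrin receptor, read 12.69, 13.07 and 13.40. Rhag, an Rh-associated membrane protein, had the widest range of the list with 10.01, 10.89 and 11.50, and Hemgn read 10.37, 10.95 and 11.38. The erythroid transcription factor genes Klf1 and Gata1 read 12.06, 12.53 and 12.50, and 8.13, 8.79 and 9.07.

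Mouse A was lowest at 23 of the 24 detected erythroid genes, against 37% of all detected genes, and mouse C was highest at 19, against 32.7%. Hba-a1 is the gene without an order. The median deviation of the list was -0.42 in mouse A, 0.04 in mouse B and 0.34 in mouse C, where the same over all genes was within 0.01 of 0 in each mouse. The summed linear level of all 26 genes, given as log2, was 17.68, 17.88 and 17.99. Gfi1b, a transcription factor gene of erythroid and megakaryocytic cells that was not in the list, read 9.88, 10.68 and 10.95, in the same order. Rhd and Epb42 were not detected on any array.

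Other groups of genes moved with the erythroid list among the mice. Over all detected genes, mouse A was lowest at 37% and mouse C highest at 32.7%. Of 30 detected cell cycle genes, mouse A was lowest at 24 and mouse C highest at 19, with median deviations of -0.18, 0.01 and 0.11. Pcna, the replication clamp, read 8.15, 8.42 and 9.10. Of 22 detected iron and haem genes, mouse A was lowest at 13 and mouse C highest at 14. Some of these genes, such as Tfrc and Fech, are also in the erythroid list. The part of erythroid cells in these differences was not tested.

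**Figure D3:**
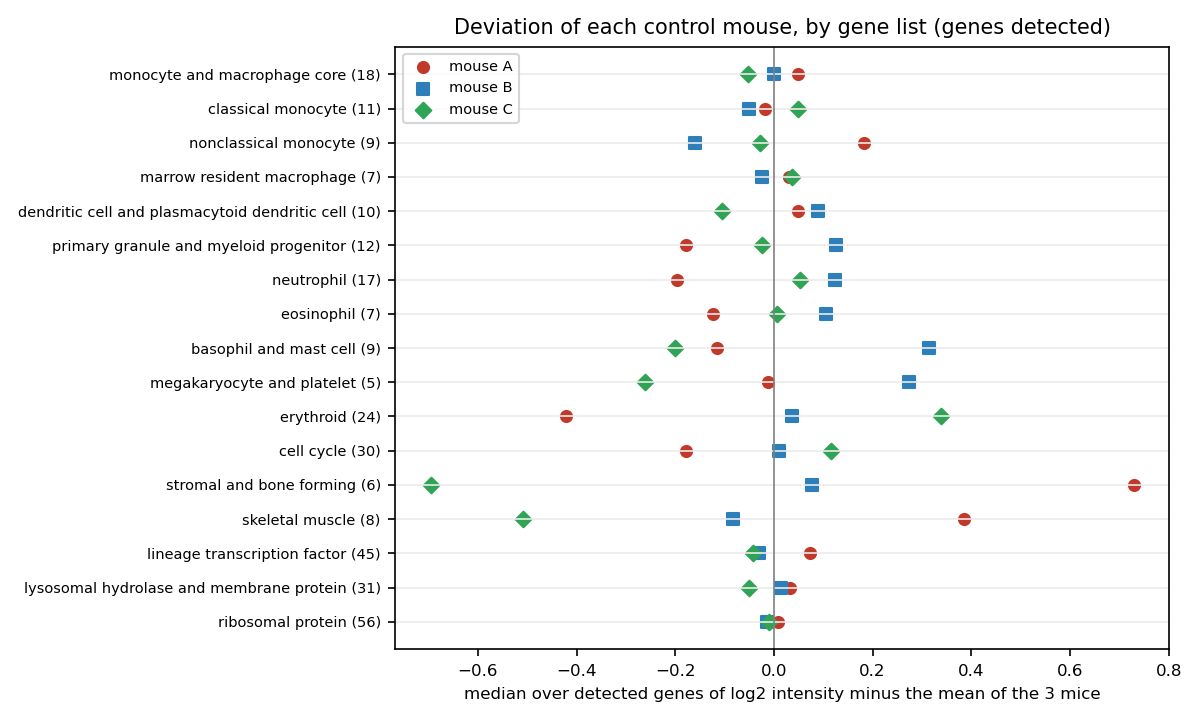
Median deviation of each mouse from the mean of the 3 mice, on the log2 scale, over the detected genes of 17 lists, with the number of detected genes in brackets. The erythroid list spreads from -0.42 in mouse A to 0.34 in mouse C, the stromal list runs the other way from 0.73 to -0.70, and the core list lies between -0.05 and 0.05.

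Megakaryocyte and platelet genes were detected at 5 of 14, or 35.7% beside 44% of all named genes, with Gp9 at a mean of 8.91. Pf4, which encodes platelet factor 4, read 9.01, 9.56 and 8.02, and Treml1 read 7.18, 7.95 and 6.86. Of 14 stem and progenitor genes, 8 were detected, or 57.1%. Among them were Lmo2 at 13.20, Gata2 at 10.25, Kit at 9.67 and Meis1 at 9.21. Flt3, Hoxa10 and Cd48 were not detected on any array.

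Few lymphoid genes were detected, set beside 44% of all named genes. Of 19 B lineage genes, Cd79b, with 9.30, 9.30 and 9.23, and Cd24a, a surface protein shared with erythroid and myeloid cells, were detected on all 3 arrays and 13 on none. Those not detected on any included Pax5, Ms4a1 and Rag1. Of 18 T lineage genes, 4 were detected and 13 were detected on none, Cd3e, Cd3g, Cd4 and Cd8a among them. The detected ones were Cd8b1, at a mean of 11.42, Thy1, Il7r and Cd3d, which read 7.19, 8.41 and 7.77. Of 15 NK and innate lymphoid genes, Nkg7 and Prf1, with means of 11.50 and 10.62, and Rora were detected. Nkg7 is also in the primary granule and myeloid progenitor list. Ncr1, Eomes, Tbx21 and Gzmb were not detected on any array. Of the genes deleted in these mice, Rag2 was not detected at its single probe. Whether that probe lies in the deleted part is not known here, so it does not check the genotype, and Il2rg, the gene of the γc chain, had no probe named here.

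Among the named genes detected on all 3 arrays, 7 of the 12 with the widest range between mice were genes of bone, stroma and muscle. Of 18 stromal and bone-forming genes, 6 were detected, or 33.3% beside 44% of all named genes. Their median range was 1.49, against 0.31 over all detected genes. Bglap, which encodes osteocalcin of osteoblasts, read 10.15, 9.26 and 8.02, and Bglap2, a near-identical copy, read 10.85, 9.90 and 8.31. Sparc, or osteonectin, read 8.53, 7.39 and 6.62, and Dcn, the matrix proteoglycan decorin, read 8.33, 7.55 and 6.27. Mouse A was highest at 5 of the 6 genes and mouse C lowest at 5, against 35.3% and 34.5% of all detected genes. Cxcl12, the chemokine that retains blood progenitors in the marrow, was highest in mouse B, with 7.70, 8.35 and 7.28. Col1a1, a collagen chain, read 7.34, 6.58 and 6.58. Of the list, 11 genes were not detected on any array, Col1a2, Col3a1, Lepr and Pdgfra among them.

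The muscle genes Acta1, Myl1 and Pvalb were among the 12 named genes with the widest range between mice. Acta1, skeletal muscle actin, read 9.16, 7.78 and 6.0, a range of 3.16. Myl1, a myosin light chain, read 9.63, 7.90 and 6.51, and Pvalb, which encodes parvalbumin, read 8.21, 7.05 and 6.16. In a list of 19 skeletal muscle genes written after these values were seen, 8 were detected, or 42.1%, beside 44% of all named genes. Mouse A was highest at 6 of the 8, where the share over all detected genes was 35.3%. The 6 include Acta1, Myl1 and Pvalb, whose order was seen before the list was written. That count was therefore partly fixed in advance and is no separate support. The list's summed level was 12.14, 11.57 and 11.19 in mice A, B and C, and Ckm, Myh1 and Myh4 were not detected on any array. Atp2a1, a calcium pump of muscle, read 7.88, 7.48 and 6.70. The other detected members, Cox6a2, Mylpf, Tnni2 and Eno3, ranged by 0.72 or less. The order of the mice at the widest bone and muscle genes was the reverse of that at the erythroid genes, and its cause was not tested. Of 16 endothelial genes, 5 were detected, or 31.25% beside 44% of all named genes. Egfl7 averaged 10.14 and Eng 8.60, and Kdr, Emcn and Lyve1 were not detected on any array.

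**Figure D4:**
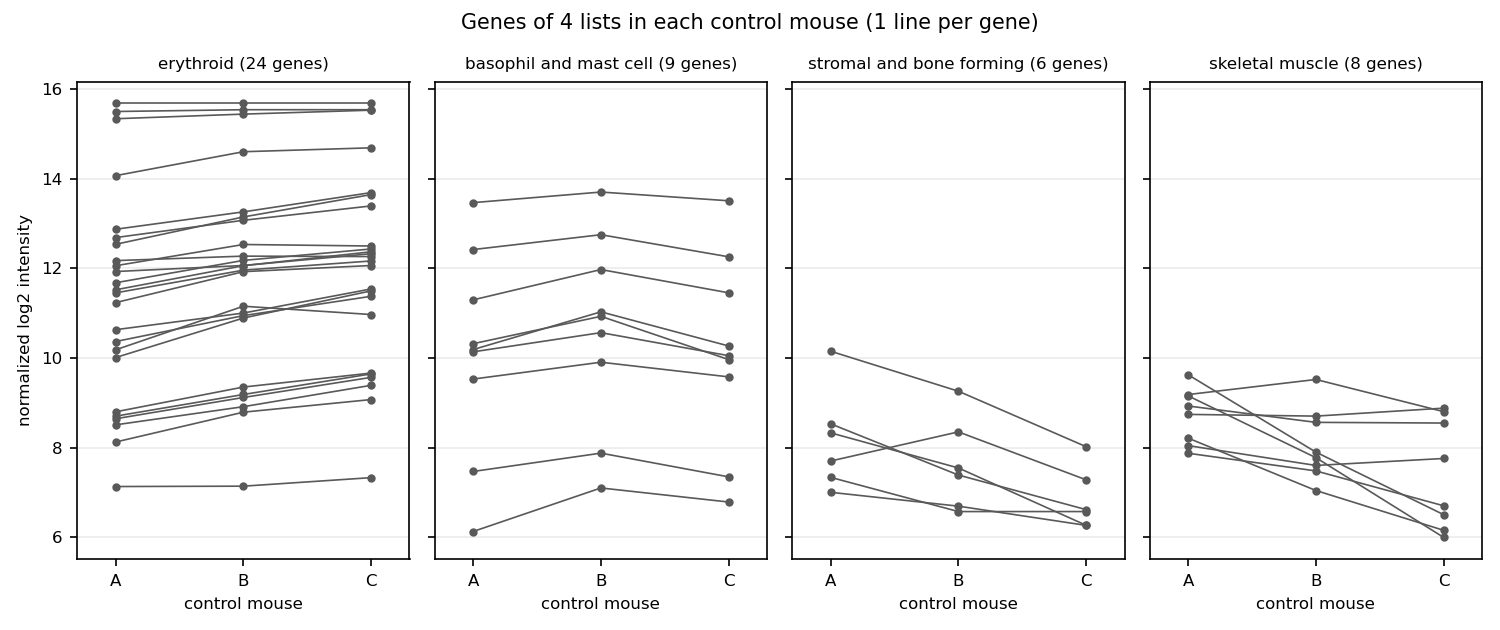
Normalized log2 intensity of the detected genes of 4 lists in mice A, B and C, with 1 line per gene; the mice have no order. Erythroid lines lie lowest in mouse A except Hba-a1, basophil and mast cell lines peak in mouse B, and most stromal and muscle lines are highest in mouse A.

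Regulators were read widely. Of 54 lineage transcription factor genes, 45 were detected, with a median level of 10.67. Klf6, Cebpb, Klf2 and Egr1 averaged 14.39, 14.39, 14.10 and 14.01, and Irf2 and Nfe2 averaged 12.98 and 12.90. Spi1, which encodes PU.1, the factor that directs myeloid development, read 9.81, 9.41 and 9.75. Cebpa read 8.81, 8.34 and 9.10. Zeb2, with 11.94, 11.30 and 10.99, and Id2, with 11.46, 10.71 and 10.71, were highest in mouse A. Mouse A was highest at 24 of the 45 genes, against 35.3% of all detected genes, and at 10 when arrays were scaled to a common median, against 17.6% of all detected genes under that scaling. Maf, Nr1h3, Tfeb, Nfkb2, Bach2, Stat5b and Nr4a1 were not detected on any array.

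The next list joined immediate early genes, which respond within minutes to stimulation and to cell handling, with heat shock protein genes such as Hspa8. Of its 27 genes, 23 were detected, with a median level of 12.67. Hspa8, Zfp36, Dusp1 and Btg1 averaged 14.75, 14.49, 14.41 and 14.21. Fos read 14.01, 13.85 and 14.12 and Junb read 13.49, 13.10 and 13.35. The heat shock genes Hspa1a, with 11.97, 12.29 and 12.81, and Hspa1b, with 10.09, 10.13 and 10.75, had the widest ranges of the list, and mouse C was highest at both. Ier5, Btg2 and Nr4a1 were not detected on any array. How much of this signal arose during purification was not tested.

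Receptor genes differed in how often they were detected. Of 35 growth factor and cytokine receptors, 22 were detected, or 62.9%, beside 44% of all named genes. The brightest were Csf2ra, the GM-CSF receptor alpha chain, at 12.19, Ifngr1 at 11.54 and Il6ra at 11.46. Csf2rb, the shared beta chain, read 7.21, 6.29 and 7.50, the widest range of that list. Il4ra, Ifnar1, Il1r1, Il21r, Tnfrsf13c, Il5ra and Flt3 were not detected on any array. Of 34 pattern recognition receptors, 27 were detected, or 79.4%. Tlr2 averaged 13.64, Ly86 12.46, Trem3 11.97 and the beta-glucan receptor Clec7a 11.61, while Tlr4, which signals with Cd14, read 7.68, 7.84 and 7.68. Tlr3, Tlr9, Tlr11, Tlr12, Ifih1 and Clec4a2 were not detected on any array.

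Chemokine and chemoattractant receptors were detected at 10 of 30, beside 44% of all named genes. Ltb4r1, the leukotriene B4 receptor, averaged 12.74, the formyl peptide receptor Fpr2 12.64, Ccrl2 11.87, and Cxcr4, the receptor for Cxcl12, 11.64. Ackr1, a chemokine-binding protein of red cells, read 8.37, 9.07 and 9.65, the same order of mice as the erythroid list. Ccr1, C5ar1, C3ar1, Cmklr1 and S1pr1 were among the 17 not detected on any array. Of 13 Fc and complement receptors, 10 were detected, with Fcgrt at 12.59, Fcgr2b at 11.78 and Cd93 at 11.57 after Fcgr3. Itgam, the alpha chain of complement receptor 3, read 8.76, 8.94 and 8.67.

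Scavenger and efferocytosis receptors were detected at 12 of 21, or 57.1% beside 44% of all named genes. Stab1 averaged 11.61, Msr1 10.18 and Scarb2 9.86. Cd36, Mertk, Tyro3, Timd4, Olr1 and Clec4f were not detected on any array. Adhesion and leukocyte surface genes were detected at 28 of 33, with Ly6e at 13.75, Cd44 at 13.02 and Cd47, the signal that restrains engulfment, at 12.81. Selplg, the ligand of P-selectin, averaged 12.73 and Cd81 12.66. Sirpa, the receptor for Cd47, read 12.31, 12.24 and 11.71. Itgav, with 8.61, 7.61 and 7.60, was the widest of that list and was highest in mouse A.

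Enzymes of the lysosome and of microbial killing were detected at almost every gene. Of 33 lysosomal genes, 31 were detected on all 3 arrays and none was missed on all of them. Psap, the saposin precursor, averaged 14.75, Cst3 14.42, Man2b1 13.97, Lamp1 13.96 and Ctsb, or cathepsin B, 13.84. Ctse, or cathepsin E, read 13.76, 14.26 and 14.50, and Ctsl, or cathepsin L, read 7.14, 7.81 and 7.95. Of 24 oxidant and microbicidal genes, 22 were detected. Gpx1, or glutathione peroxidase 1, read 15.58, 15.52 and 15.60. Prdx2, an abundant red cell peroxiredoxin, read 14.13, 14.55 and 14.66. Cyba, a membrane subunit of the NADPH oxidase, averaged 14.11, and Cybb, its partner, read 9.08, 7.78 and 8.10. Nos2 and Arg1, the enzymes that use arginine in activated macrophages, were not detected on any array.

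Of 17 lipid mediator genes, 9 were detected, or 52.9% beside 44% of all named genes. Alox5ap, which presents arachidonate to 5-lipoxygenase, averaged 14.70. Ptgs2, Lta4h, Pla2g4a, Hpgds and Alox12 were not detected on any array. Of 23 lipid and cholesterol genes, 16 were detected, with Apoe, Pnpla2 and Cyp27a1 brightest, and Scd1 ranged most, with 7.66, 8.44 and 8.68. Abca1, Fabp4, Fabp5 and Cd36 were not detected on any array. Fth1 and Ftl1, the ferritin chains, averaged 14.97 and 13.90. The haem synthesis enzymes Alad and Urod averaged 14.17 and 14.06 and Blvrb, a biliverdin reductase, 13.96. Steap3, an endosomal iron reductase, read 7.19, 7.82 and 8.36. Glycolytic genes were detected at 16 of 19, with Pkm at 13.41, Tpi1 at 13.17 and Ldha at 12.75, and Gapdh read 13.50, 13.50 and 13.45. Matrix protease and inhibitor genes were detected at 12 of 19, with Slpi at 13.44 and Adam17 at 10.75.

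Cell cycle genes were detected at 30 of 35, with a median level of 11.95. The brightest were Cenpa, a centromere histone, at 14.24, the replication helicase genes Mcm5 and Mcm4 at 14.08 and 13.94, and Ccnd3 at 13.87. Ccnb2, Bub1 and Kif20a were not detected on any array. Interferon-stimulated genes were detected at 26 of 33. Ifitm1 and Ifitm3, which restrict virus entry, averaged 14.56 and 14.46, Ifitm2 averaged 13.87 and Irgm1 13.68, while Isg15 averaged 8.66 and Ifit1, Oas1a, Oas3, Xaf1, Ifi204, Ifi205 and Trim30a were not detected on any array. Of 15 class I presentation genes, 13 were detected, among them B2m at 14.22, H2-D1 at 14.06, Pdia3 at 13.27 and Psmb8 at 12.77, and Nlrc5 and Erap1 were not detected on any array. Calr, which encodes calreticulin, read 11.10, 11.63 and 12.24.

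Secreted factors were detected at 30 of 49. Lgals3, the galectin of macrophages, averaged 14.24, the chemokines Ccl3 and Ccl4 averaged 14.04 and 13.78, Mif averaged 13.77 and oncostatin M, Osm, 13.72. Il1b read 11.36, 11.54 and 11.53 and Tnf read 10.40, 10.46 and 10.51. Il6 read 6.13, 7.10 and 6.79. Csf1, the ligand of Csf1r, read 7.41, 8.05 and 6.48, a range of over 1. Ccl5, Ccl17, Ccl22, Il23a, Csf2 and Cxcl9 were among the 12 not detected on any array. Of 12 complement component genes, 3 were detected. Cfp, which encodes properdin, averaged 14.35, and C4b and Cd59a were below 9.

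Ribosomal protein genes held 31 of the 100 brightest named genes, and 56 of 64 were detected, with a median level of 14.40 and a median range of 0.14. Rpl14, Rps20, Rps23, Rpl17 and Rpl39l were not detected on any array. Rplp1, Rps9, Rpl41 and Rps29 averaged 15.59, 15.33, 15.29 and 15.24. Genes of H2A histones, which have near-identical copies, held 7 of the 100 brightest, with H2ac24 at 15.53 and H2ac10 at 15.52. The rest of the 25 brightest included Eef1a1, a translation elongation factor, at 15.49, Tuba1b at 15.15, Actb at 14.99 and Atp5b. Of the 100 brightest probes of the array, 39 are unnamed here, so the named genes are an incomplete account of the bright end. On each array the 100 brightest probes held between 10.3% and 10.7% of the summed raw intensity.

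The 3 arrays agreed closely. Over the probes detected on all 3, Pearson's r across probes was 0.984 for mice A and B, 0.982 for A and C and 0.990 for B and C, where probes are not independent replicates. A difference of 1 or more on the log2 scale was seen at 247 probes between A and B, at 321 between A and C and at 49 between B and C. The median range between the 3 mice was 0.33, and 95% of probes ranged by less than 0.89. A range of 1 or more was found at 470 probes, or 3.15%, and a range of 2 or more at 16. Of the 470, mouse A was highest at 263 and lowest at 173. The share of such probes was 4.51% for levels under 7, 5.35% for 7 to 9, 1.47% for 9 to 11, 0.55% for 11 to 13 and 0.29% from 13 upward. Without mouse A, 53 probes differed by 1 or more between the remaining mice.

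**Figure D5:**
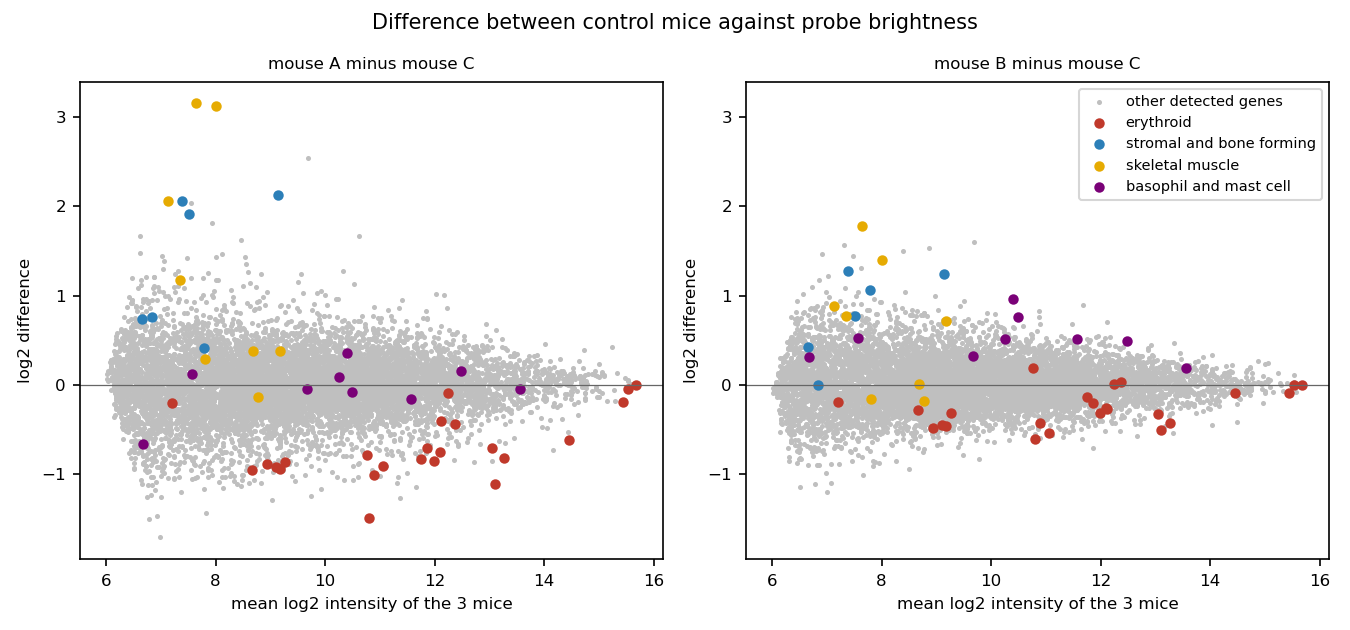
Difference in log2 intensity between mice A and C (left) and between mice B and C (right), against the mean level of each detected named gene, with genes of 4 lists in colour. In the left plot the coloured muscle and stromal genes lie highest above 0 and erythroid genes below it, and the scatter narrows as probes get brighter.

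The 12 named genes with the widest range between mice were led by the muscle and bone genes above. The others were Pou5f2, with 8.84, 7.05 and 6.80, Dock10, with 9.19, 7.24 and 7.38, Trps1, with 11.82, 9.90 and 10.15, Gm36027, with 7.77, 6.02 and 6.10, and Acsl6, with 6.19, 6.90 and 7.89. Mouse A was highest at all of them except Acsl6, an acyl-CoA synthetase gene. Other probes of a gene often did not share its wide range. Trps1, a zinc finger transcription factor gene, ranged by 1.92, 1.06 and 0.60 at its 3 probes, with mouse A highest at each. Sparc ranged by 1.91 and 1.31 at its 2 detected probes, and Acsl6 by 1.71 and 0.91. Actb ranged by 0.23, 0.14, 1.38, 1.79 and 1.40 at its 5 probes, with mouse B highest at the last 3. Of 196 genes with a wide probe and another detected probe, 124 also had a probe that ranged by less than 0.5, and at 10 every detected probe was wide.

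Promoter sequence was set beside the lists that share a lineage. The windows cover 250 bases before and 50 after the first listed start of a gene, from RefSeq on GRCm38.p6, and 15237 of the 19057 named genes had one. Both strands were searched for 4 motifs: GAGGAA, the core bound by PU.1 and related ETS factors, AGATAA, bound by GATA factors, TATAAA, the TATA element, and CCACACCC, bound by erythroid KLF factors. Matches to different motifs may share end bases. GAGGAA was present in 27.1% of the promoters of named genes. It was present in 6 of 11 core genes, in 6 of 10 primary granule genes and in 8 of 15 neutrophil genes. Among erythroid genes it was present in 5 of 17, and among ribosomal protein genes in 11 of 48. It was present in 27.2% of promoters of detected genes and in 27.0% of those detected on no array. AGATAA was present in 5 of 17 erythroid genes, in 4 of 15 neutrophil genes and in 1 of 11 core genes. It was present in 0 of 10 primary granule genes and in 9.58% of named genes. CCACACCC was present in 1 of 17 erythroid genes, in 2 of 15 neutrophil genes, in 0 of 11 core genes, in 0 of 10 primary granule genes and in 3.79% of named genes. TATAAA was present in 7.29% of promoters of genes detected on all 3 arrays, in 17.9% of those detected on none and in 18 of the 84 promoters found for the 100 brightest genes. A match describes letters in the window and not a bound site.

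Of 15 genes whose promoters were looked at, 11 had a window, and 5 are shown because they hold a motif of their lineage. They were picked after the matches were seen, and Lyz2, Hba-a1 and Klf1 held none of the 4 motifs. Capitals mark GAGGAA, or its complement TTCCTC, in the primary granule genes Mpo (chr11:87793534-87793833, plus strand) and Elane (chr10:79886062-79886361, plus strand), the neutrophil gene S100a8 (chr3:90668821-90669120, plus strand) and the marker Ly6c1 (chr15:75048788-75049087, minus strand, the first of 2 listed starts). In Alas2 (chrX:150547167-150547466, plus strand), the first enzyme of haem synthesis in red cells, which read 11.24, 11.93 and 12.07, capitals mark the complement of AGATAA.
Mpo: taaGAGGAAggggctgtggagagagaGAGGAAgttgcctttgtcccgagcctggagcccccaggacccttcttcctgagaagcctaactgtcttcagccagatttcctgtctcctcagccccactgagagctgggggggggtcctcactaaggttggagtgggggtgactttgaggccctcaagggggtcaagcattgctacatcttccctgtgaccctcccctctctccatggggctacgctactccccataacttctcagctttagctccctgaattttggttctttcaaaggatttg
Elane: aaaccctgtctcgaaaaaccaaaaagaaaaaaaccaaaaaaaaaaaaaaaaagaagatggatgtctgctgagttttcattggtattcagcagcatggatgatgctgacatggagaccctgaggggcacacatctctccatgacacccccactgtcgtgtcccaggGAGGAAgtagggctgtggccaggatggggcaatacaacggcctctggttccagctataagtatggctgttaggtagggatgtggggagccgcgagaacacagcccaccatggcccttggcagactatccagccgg
S100a8: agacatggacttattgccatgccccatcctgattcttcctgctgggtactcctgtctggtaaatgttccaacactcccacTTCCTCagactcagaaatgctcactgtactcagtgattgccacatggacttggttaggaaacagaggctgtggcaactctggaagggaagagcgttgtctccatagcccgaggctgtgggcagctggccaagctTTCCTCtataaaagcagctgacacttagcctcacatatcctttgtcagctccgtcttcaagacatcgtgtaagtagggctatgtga
Ly6c1: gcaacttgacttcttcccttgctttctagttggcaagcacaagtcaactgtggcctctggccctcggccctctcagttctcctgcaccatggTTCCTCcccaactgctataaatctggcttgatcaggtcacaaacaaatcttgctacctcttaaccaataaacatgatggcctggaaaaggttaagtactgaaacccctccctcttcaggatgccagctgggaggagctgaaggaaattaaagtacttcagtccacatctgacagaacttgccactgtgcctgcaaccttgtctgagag
Alas2: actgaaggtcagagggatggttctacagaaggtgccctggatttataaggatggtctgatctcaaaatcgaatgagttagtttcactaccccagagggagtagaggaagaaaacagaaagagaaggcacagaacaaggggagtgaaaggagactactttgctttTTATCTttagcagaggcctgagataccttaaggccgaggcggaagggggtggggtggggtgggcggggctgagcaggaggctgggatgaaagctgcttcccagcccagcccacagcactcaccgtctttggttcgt
Of the motif in capitals, Mpo and S100a8 each hold 2 matches in the window, and Elane, Ly6c1 and Alas2 hold 1. Other motifs of the 4 are left in lower case: TATAAA is also present in S100a8, Ly6c1 and Alas2, and GAGGAA is also present in Alas2.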

How the data were processed

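Total RNA of each mouse was hybridised as biotinylated cRNA to a single-colour mouse bead array. The authors deposited, per the file headers, a mean bead intensity that was not normalized, with its detection p-value, at 45281 probes. GenomeStudio is named in the submitters' processing notes, but no version is given there. A second deposited table holds the authors' processed intensity values, which have nearly the same distribution on every array, and it served as an alternative. Every per-sample column was mapped to a labelled sample.

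The 3 control arrays alone were processed with neqc (limma 3.58.1, R 4.3.3). It derives the background from the negative controls implied by detection p-values, adds 16 as an offset to the corrected values, quantile-normalizes them and puts the deposited intensities on a log2 scale. The offset compresses differences at dim probes. With no background correction, 114 detected probes ranged by 1 or more between mice, against 470 with neqc. Python 3.11.15 was used for the rest. The normalization was tested on simulated arrays. With 1 group of 3 mice no test was made, and the number of arrays limits the precision. The spread is that among mice.

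Of the probes, 34885 had 1 gene symbol, 18 several and 10378 none in the platform annotation, and symbols were updated through RefSeq for 34807. The brightest probe represents a gene. In 2 genes another probe alone was detected on all 3 arrays. A range of 1 or more on the log2 scale between mice is called wide. Promoter windows came from a RefSeq table on GRCm38.p6, and no genome file was read.

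The mice, the 41 gene lists and the rules were chosen with earlier results of these data known. Of the symbols in the lists, 72 matched no named probe. The pattern for ribosomal protein genes first also took in S6 kinases and was corrected after its counts had been seen, and the skeletal muscle list was added later. The text names the 4 markers, the 25 brightest and 12 widest genes, and in each list up to 6 brightest, up to 3 widest and genes not detected on any array, of which long lists give a part. Other list members it names, such as Spi1, Cebpa, Gata1, Klf1, Tlr4, Itgam, Isg15 and Il1b, were chosen after their values were seen. Alternatives were another detection threshold, other background and normalization steps, neqc over all 6 arrays, and leaving out each mouse.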

Additional observations from a re-analysis of the deposited data

How the results depend on the processing

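The count of probes detected on all 3 control arrays lay between 13237 and 16380 under other detection rules, and that of genes between 7670 and 8985, against 14939 and 8392. With 1 mouse left out, they lay between 15129 and 15745 probes and between 8478 and 8712 genes. The median range between mice, 0.33, lay between 0.25 and 0.37 under the other normalizations and the stricter detection threshold. It lay between 0.18 and 0.22 when 1 mouse was left out, since a range over fewer arrays is smaller by construction.

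The count of 470 wide probes depended on the processing. It was 114 with no background correction, 107 with the authors' processed values and 245 with an offset of 50, and the cause was not tested. It was 432 with neqc over all 6 arrays, 524 with median scaling and 348 at a detection p-value under 0.01. With 1 mouse left out it lay between 53 and 309, with the low value without mouse A, 309 without mouse B and 241 without mouse C.

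Median scaling shifted the median of all detected genes by -0.10 in mouse A and 0.10 in mouse B, so lists are read against that shift. Under it, mouse A was lowest at 57.0% of all detected genes, at 24 of 24 erythroid genes and at 29 of 30 cell cycle genes. It was highest at 17.6% of all detected genes, at 5 of 6 stromal genes and at 2 of 18 core genes, in place of 10. Of the list deviations recomputed, 43 moved by more than the spread between mice and 419 did not, and none of those at or beyond 0.1 in size changed sign. Among named genes, 85 recomputed levels and 30 ranges moved by more than 1 SD, and 243 and 175 did not. These counts include an average over the detected probes of each gene, which cannot move a gene with 1 detected probe. Part of the unmoved values was therefore fixed in advance. At the stricter detection threshold, 1 B lineage gene was detected, against 2.

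No paired analysis was possible because the letters of the mice are not shared between the groups and no groups were compared. Dim probes limit the description, since 106 of the 470 wide probes had levels under 7 and another 286 had levels of 7 to 9.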

Other observations

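The mice were also read at genes of the sex chromosomes, whose labels give no sex. Xist, the RNA that silences an X chromosome, was detected at all 4 of its probes, and the brightest read 11.73, 11.69 and 11.01 in mice A, B and C. The Y-linked genes Kdm5d and Eif2s3y were not detected on any array at 2 probes each. Uty, also Y-linked, was detected at 1 of 4 probes with 6.73, 6.35 and 6.15, near the background, and not at the other 3.

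Probes of 1 gene agreed in part on how the mice differ. Among 3125 genes with 2 or more detected probes, the brightest and the next brightest probe had the same highest mouse in 52.7%. Where the brightest probe ranged by 1 or more, this was so for 34 of 51 genes. Cd44, an adhesion receptor with 9 probes, ranged by 1.82 at 1 detected probe, where mouse A read 10.05 against 8.23 and 8.31 in mice B and C. It ranged by 0.51 or less at its other 3 detected probes. Nipbl, a cohesin loader, ranged by 1.50 at 1 of its 7 detected probes, with mouse A highest, and by 0.49 or less at the other 6. Cd44 and Nipbl were chosen after their values were seen.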
